A study of Rattus norvegicus with 12 samples.

Results

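The miR-200 family was followed here across cells and tissue of the rat medial entorhinal cortex (MEC), the cortical area that holds grid cells. Its 5 members, miR-200a, miR-200b, miR-200c, miR-141 and miR-429, were taken by name from the 375 miRNA assays of a TaqMan low density card, a plate of single-well quantitative PCR reactions run after reverse transcription and pre-amplification. All 5 were on the card, and each was read in all 12 samples. The matching by name used no measured value, but earlier results of these data were known when the members were chosen.

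The samples came from Long Evans rats with no genetic modification named in their labels, in 3 groups. In 5 stellate samples, the cells had taken up DiO, a fluorescent membrane dye injected on both sides into the dentate gyrus on postnatal day 2 and carried back along the axons, and they were dissociated from the MEC and sorted as DiO positive on day 4 or 5. In 5 non-stellate samples, the cells were the DiO negative ones of the same injected pups' MEC, so any viable cell without dye could enter this gate, neuron or not, a stellate cell that the dye had missed included. The 2 tissue samples were whole MEC, dissected on day 23, with no injection or dissociation given in their labels. Age, dissociation, sorting and RNA kit therefore all differed between tissue and sorted cells and cannot be told apart. The comparison of both sorted groups addressed how miRNAs of stellate cells, a class of projection neuron in layer II, differ from those of their neighbours.

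MicroRNAs are short RNAs that guide Argonaute proteins to messenger RNAs, mainly through the seed, bases 2 to 8 of the mature strand. The miR-200 family is best known from epithelial tissues, where it represses Zeb1 and Zeb2, transcriptional repressors of E-cadherin, and so helps cells to stay epithelial. In the brain it is known mainly from olfactory and other sensory epithelia and from neural progenitors.

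The family is encoded at a pair of loci, and it holds a pair of seeds that cut across them. The mature 3′ strands of miR-141 and miR-200c are shown because they carry the 2 seeds of the family, with bases 2 to 8 in capitals (RefSeq, build GRCr8, 5′ to 3′).
miR-141-3p: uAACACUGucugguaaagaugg
miR-200c-3p: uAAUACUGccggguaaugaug
Over the 21 positions that both strands share, counted from 1 at the 5′ end with miR-141-3p first, they differed at 4, C4U, U9C, U11G and A17U. Only C4U lay in the seed. Both genes were on the minus strand of chromosome 4, Mir200c at chr4:159209965-159210033 and Mir141 at chr4:159209525-159209618. They lay within 509 bases, between the coding genes Phb2, 963 bases before the lowest coordinate of the pair, and Ptpn6, 2286 bases after its highest, and inside neither.

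The other 3 genes lay on the minus strand of chromosome 5 within 1908 bases, inside the annotated spans of the coding gene Ttll10 and of the long non-coding RNA LOC106182250. Their hairpins are shown in the order of transcription, with the seed of miR-141-3p or miR-200c-3p in capitals where it was found.
Mir200b, chr5:171931495-171931589: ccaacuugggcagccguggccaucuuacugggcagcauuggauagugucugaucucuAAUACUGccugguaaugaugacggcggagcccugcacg
Mir200a, chr5:171930717-171930805: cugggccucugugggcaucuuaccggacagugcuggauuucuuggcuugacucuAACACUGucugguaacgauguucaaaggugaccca
Mir429, chr5:171929682-171929766: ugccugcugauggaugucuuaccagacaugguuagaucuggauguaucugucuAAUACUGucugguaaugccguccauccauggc
The hairpins of miR-200b, miR-429 and miR-200c thus held AAUACUG, and those of miR-200a and miR-141 held AACACUG. Searched on the transcribed strand, each of these 7 letters stood in 4 of 419 rat hairpins of the table (0.955%). All 5 members had a hairpin entry and 2 had an entry for the mature 3′ strand.

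A cycle threshold (Ct) is the PCR cycle at which a well crosses the detection level. It is a log2 scale that falls as abundance rises, and a well that never crossed was entered by the authors as 40 and is called undetermined. Sorted samples had 203 to 260 determined miRNA assays of 375 and the tissue samples 292 and 302. Stellate samples had more than non-stellate samples (249 ± 10.3 against 227.4 ± 17.1, SD, n = 5 each, exact two-sided permutation p = 0.0397). The excess was 9, 19, 18, 8 and 54 assays in the same-numbered pairs 1 to 5, whose sign-flip permutation gave p = 0.0625, the smallest that 5 pairs allow, and without pair 5 the mean excess fell from 21.6 to 13.5 (exact permutation p = 0.143). The mean Ct of the 4 wells of U6, a small nuclear RNA used for scaling, was 16.5 to 20.2 in sorted samples and 16.0 and 15.6 in tissue. Each miRNA was read in 1 well per sample, so a single failed well cannot be told from a low level.

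Each member was undetermined in at least 3 of the 10 sorted samples. Of 25 member wells per sorted group, 11 were determined in stellate and 10 in non-stellate samples. Stellate samples 1 to 5 had 3, 3, 1, 1 and 3 members determined, non-stellate samples 2, 2, 2, 3 and 1, and tissue samples 2 and 5. The groups overlapped, and the mean difference of 0.2 members was within the spread between samples (exact two-sided permutation p = 1). No pair of members was determined in all 10 sorted samples (0 pairs), so the planned comparison of differences between members within a sample gave no value.

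**Figure D1:**
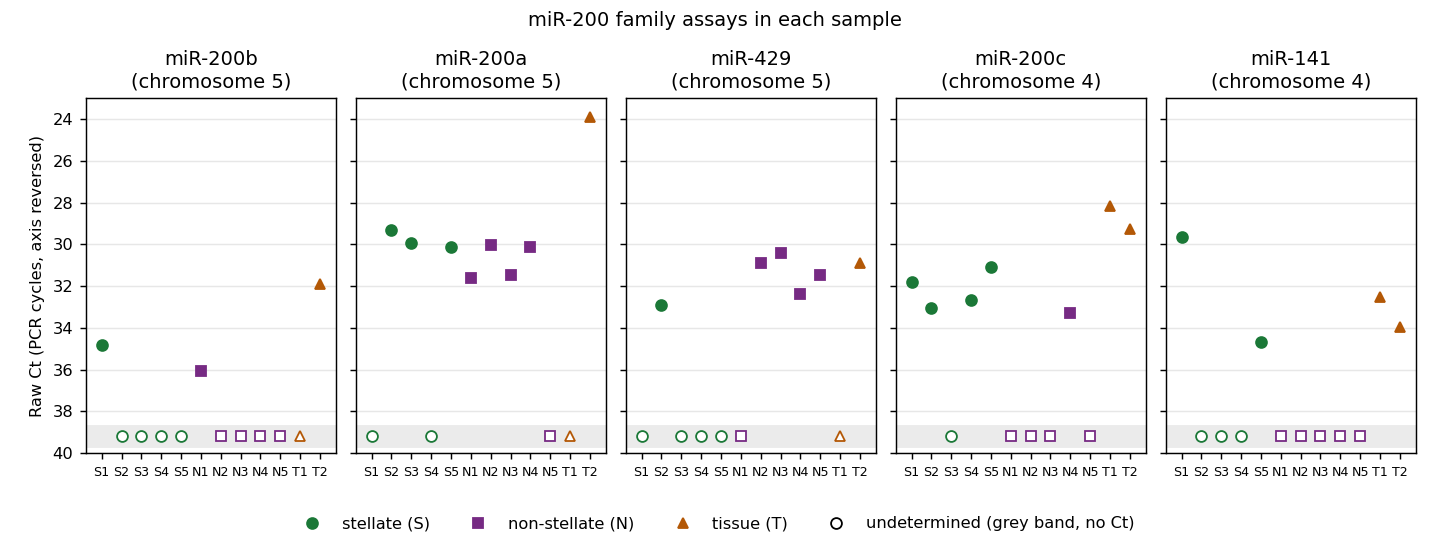
Raw Ct, in PCR cycles on a reversed axis so that more abundant is higher, of each family member in the 5 stellate (S), 5 non-stellate (N) and 2 tissue (T) samples. Open symbols in the grey band are undetermined wells, among them all 5 non-stellate wells of miR-141 and the tissue 1 wells of the 3 chromosome 5 members.

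Among the chromosome 5 members, miR-200a was determined most often, in 7 of 10 sorted samples. Its raw Ct was undetermined, 29.3, 29.9, undetermined and 30.1 in stellate samples 1 to 5. In non-stellate samples 1 to 5 it was 31.6, 30.0, 31.4, 30.1 and undetermined. Both groups thus held samples near Ct 30 and samples without a signal, and the determined wells spanned 2.33 cycles.

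After subtraction of the mean U6 Ct of each sample, the determined wells of miR-200a lay at 11.1, 10.9 and 13.6 cycles above U6 in stellate samples 2, 3 and 5. Those of non-stellate samples 1 to 4 lay at 13.5, 12.3, 13.5 and 11.7. The groups overlapped on this scale too. With undetermined wells entered at 40, miR-200a was lower in stellate than in non-stellate samples by a log2 difference of -2.05 ± 2.55 (SE, n = 5 each, limma adjusted p = 0.783). It was the only member that passed the filter of this fit, and 0 of all 222 tested assays passed an adjusted p of 0.05 (0%), with 16 at an unadjusted limma p under 0.05 (7.21%). In the median over all tested assays the log2 difference was 0.46. Over determined wells alone the sign turned, to 0.85 (limma adjusted p = 0.814), and without replicate 4 of both groups it was 0.06. The stellate sample exceeded its same-numbered non-stellate sample in both pairs in which both wells were determined, by 1.14 in pair 2 and 2.61 in pair 3 on the U6 scale. With each sample centred on its median miRNA these differences were -0.22 and 0.76, so the direction in pair 2 depended on the scaling.

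MiR-429 had the opposite balance to the chromosome 4 members, with more determined wells in non-stellate samples. It was undetermined in stellate samples 1, 3, 4 and 5 and had a Ct of 32.9 in stellate 2. In non-stellate samples 1 to 5 its Ct was undetermined, 30.9, 30.4, 32.4 and 31.4. The 4 determined non-stellate wells were all earlier than the single stellate one, and 1 non-stellate well lay with the undetermined stellate wells.

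Determined in 4 non-stellate samples and 1 stellate sample, miR-429 was the only one of 375 assays (0.267%) with at least 3 more determined non-stellate than stellate samples. The cutoff of 3 equals its own difference and was not among the planned tests, so this count is a description only. Fisher's exact test of these counts gave p = 0.206 (1 after Benjamini-Hochberg adjustment over 375 assays). On the U6 scale, with undetermined wells at 40, it was lower in stellate samples by a log2 difference of -6.37 (exact two-sided permutation p = 0.0317, adjusted p = 0.608 over 245 assays determined in at least 5 of 10 sorted samples). Of these 245 assays, 14 had an exact permutation p under 0.05 (5.71%). The size of this difference is set largely by the value given to undetermined wells. Over determined wells alone it was -2.07, with 1 stellate well against 4, too few for an exact permutation p under 0.05. With same-numbered samples taken as pairs, the sign-flip permutation gave p = 0.0625, the smallest that 5 pairs allow. In pair 1 both wells were undetermined, so the value of that pair came from U6 alone. With every Ct capped at 35 the difference was -3.37 (exact permutation p = 0.0317). Without non-stellate samples 3 and 5, which one label field names as labelled cells, it was -4.59 (exact permutation p = 0.214). In pair 2, the single pair with both wells determined, stellate minus non-stellate was -1.61 on the U6 scale and -2.96 after median centring.

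MiR-200b, the first gene of the chromosome 5 locus, was the least often determined of the 3. It had a Ct of 34.8 in stellate 1 and 36.1 in non-stellate 1, a same-numbered pair, and was undetermined in the other 8 sorted samples. Both wells lay 18.0 cycles above U6, a difference of 0.02 between the groups in that pair (0.58 after median centring). At so few determined wells no difference was detectable (Fisher's exact p = 1).

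No sorted sample held all 3 chromosome 5 members. Together they were determined in 5 of 15 stellate wells and 9 of 15 non-stellate wells (exact two-sided permutation of the number per sample, p = 0.167). Non-stellate 2, 3 and 4 held miR-200a with miR-429, and non-stellate 1 held miR-200a with miR-200b, so 4 of 5 non-stellate samples had more than 1 of these members. Among stellate samples 1 of 5 did, stellate 2, with miR-200a and miR-429.

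The chromosome 4 pair was determined mainly in stellate samples. MiR-200c had a raw Ct of 31.8, 33.0, undetermined, 32.7 and 31.1 in stellate samples 1 to 5. In non-stellate samples its single determined well was that of sample 4, at 33.3, and the other 4 were undetermined. So 4 of 5 stellate samples and 1 of 5 non-stellate samples gave a signal, and the non-stellate well was the latest of the 5.

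On the U6 scale the 5 determined wells of miR-200c lay within 0.39 cycles, from 14.6 to 15.0, although their raw values spanned 2.23 cycles. Centred on each sample's median miRNA they spanned 1.89 cycles. The single non-stellate well therefore equalled its stellate partner within 0.01 on the U6 scale (stellate minus non-stellate, pair 4), and -0.07 after median centring. No comparison of levels between the groups can rest on 1 non-stellate well, and the log2 differences given next follow from the number of undetermined wells.

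MiR-200c was 1 of 15 assays (4%) with at least 3 more determined stellate than non-stellate samples. This unplanned cutoff equals its own difference too, so the count is a description only. Fisher's exact test gave p = 0.206 (1 after adjustment over 375 assays). With undetermined wells at 40, the log2 difference was 4.13 in favour of stellate samples (exact two-sided permutation p = 0.0714, adjusted p = 0.608 over 245 assays), and 3.73 after median centring (exact permutation p = 0.119). Same-numbered samples taken as pairs gave a sign-flip permutation p of 0.0625, the smallest that 5 pairs allow, and of 0.25 after median centring. Both wells of pair 3 were undetermined. With every Ct capped at 35 the log2 difference was 1.13 (exact permutation p = 0.119). Over determined wells alone it was 0.0081, with 1 non-stellate well, too few for an exact permutation p under 0.05. The main exact permutation p was thus over 0.05, and 2 omissions of single samples brought it under 0.05, unadjusted. Without stellate 3 the difference was 5.36 (exact permutation p = 0.0317), and without non-stellate 4 it was 5.47 (exact permutation p = 0.0238).

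MiR-141, the partner of miR-200c at the chromosome 4 locus, was undetermined in all 5 non-stellate samples. It had a Ct of 29.6 in stellate 1 and 34.7 in stellate 5, and was undetermined in stellate 2, 3 and 4. The 2 determined wells lay 5.06 cycles apart, at 12.8 and 18.2 cycles above U6, the widest spread of determined wells in the family. Counts of 2 and 0 of 5 do not separate the groups (Fisher's exact p = 0.444). In both samples with miR-141, miR-200c was determined as well, so that the pair was read together in stellate 1 and 5 and in both tissue samples.

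Over both chromosome 4 members, 6 of 10 stellate wells and 1 of 10 non-stellate wells were determined (exact two-sided permutation of the number per sample, p = 0.127). In pairs 1 to 5 the stellate sample had 2, 1, 0, 0 and 2 more of them than its partner (sign-flip permutation p = 0.25). For the chromosome 5 members the same differences were -1, 0, -1, -2 and 0 (sign-flip permutation p = 0.25), and neither locus passed a test. MiR-200c and miR-429, whose hairpins hold the same seed, had their larger count in opposite groups.

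**Figure D2:**
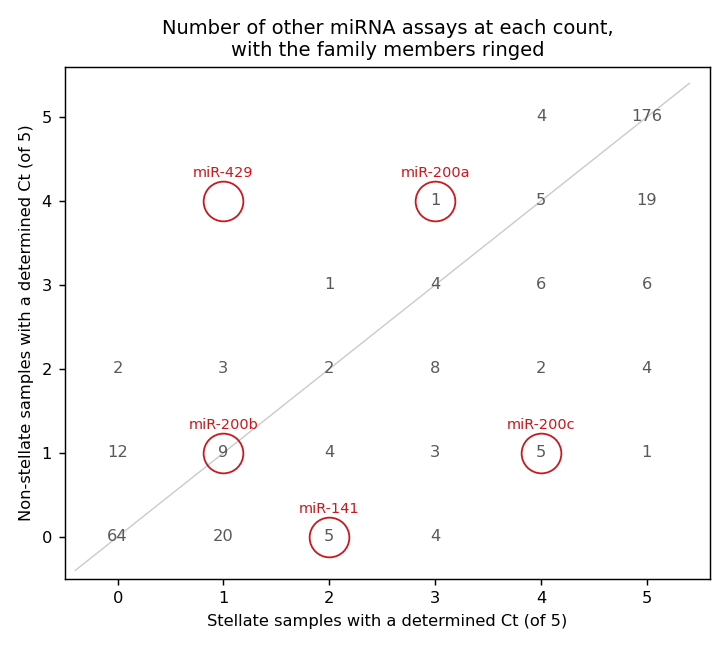
Number of stellate samples (x axis, of 5) and non-stellate samples (y axis, of 5) in which an assay had a determined Ct. Grey figures count the other 370 miRNA assays at each position, red rings mark the family, and miR-429 stands alone at 1 stellate and 4 non-stellate samples.

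**Figure D3:**
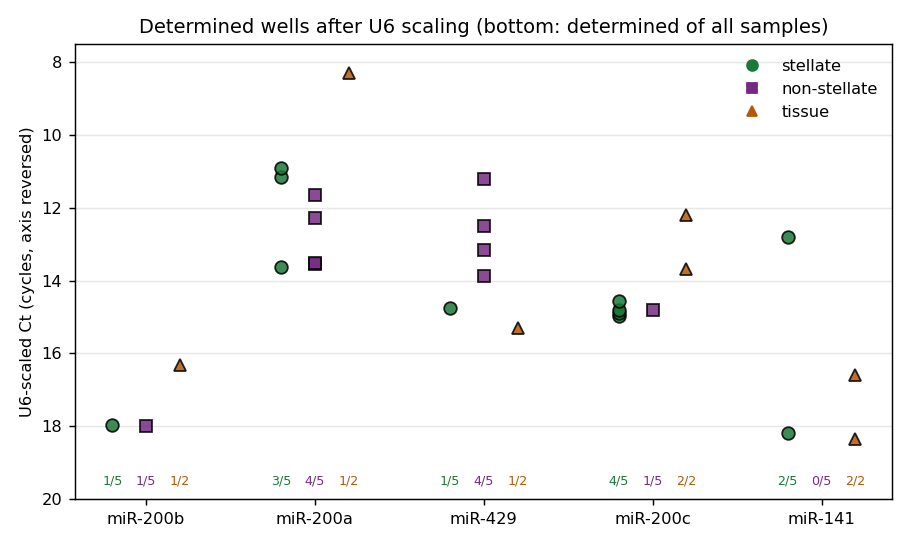
Determined wells of each member after U6 scaling, in cycles above U6 on a reversed axis, by group, with the number of determined wells of all samples at the bottom. The 5 sorted wells of miR-200c lie within 0.39 cycles, while the 2 stellate wells of miR-141 lie 5.38 cycles apart.

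Undetermined wells were more frequent for miR-200a and miR-429 than for most assays read at the same cycle. Of 25 other assays whose median determined Ct was within 0.5 cycles of that of miR-200a, 19 were determined in all 10 sorted samples and 2 no more often than miR-200a. For miR-429, at 5 of 10, the counts were 23 of 32 and 2. For miR-200c, also at 5 of 10, they were 13 of 39 and 16. Of 31 assays near the median of miR-141, 4 were determined no more often than its 2 of 10. That median, 32.2, is the midpoint of wells at 29.6 and 34.7, so these assays were not of like Ct to either well. For miR-200b, at a median determined Ct of 35.4, 16 of 26 assays were determined no more often. MiR-200a and miR-429 were thus determined less often than most assays of like Ct, which was not so for miR-200b, and miR-200c stood between. For miR-141 this could not be read. Whether these wells failed or held no template was not tested.

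In tissue the chromosome 5 members were read in 1 sample only. MiR-200a had a Ct of 23.9, miR-429 of 30.9 and miR-200b of 31.9 in tissue 2, and all 3 were undetermined in tissue 1. The chromosome 4 pair was determined in both tissue samples, miR-200c at 28.2 and 29.3 and miR-141 at 32.5 and 33.9 in tissue 1 and 2. Tissue 2 was thus later than tissue 1 by 1.11 and 1.40 cycles for the chromosome 4 pair, while it alone held the chromosome 5 members.

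The tissue samples otherwise gave like readings. Of 286 assays determined in both, 89.9% differed by less than 1 cycle, and the median difference was 0.0015 cycles. In tissue 2 alone 16 assays were determined (4.27%), 3 of them members, and in tissue 1 alone 6 (1.6%), none of them a member. MiR-200a had the earliest Ct of the 16. Next came miR-874 at 24.1, which had been determined in 1 sorted sample, at Ct 14.7, and miR-743a at 26.9. In tissue 2, 243 assays had a Ct under 30, and 4 of these, miR-200a among them, were undetermined in tissue 1. The levels of the chromosome 5 members in day 23 tissue therefore rest on 1 sample with no second reading, and the cause of the difference between the tissue samples was not tested.

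**Figure D4:**
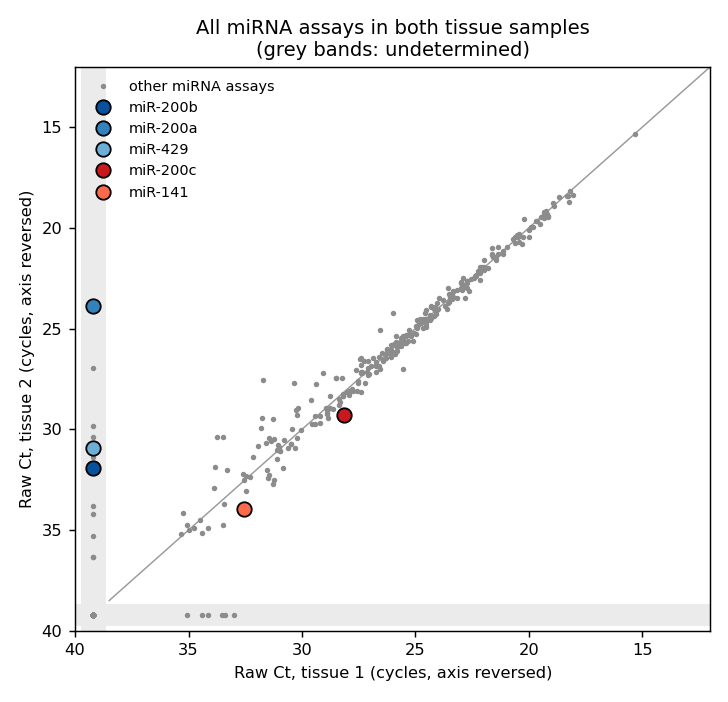
Raw Ct of all 375 miRNA assays in tissue 1 (x axis) and tissue 2 (y axis), in cycles on reversed axes, with undetermined wells in grey bands and equal values on the line. MiR-200c and miR-141 are later in tissue 2 by 1.11 and 1.40 cycles, while 89.9% of assays determined in both lie within 1 cycle. MiR-200a, miR-429 and miR-200b lie in the band of wells undetermined in tissue 1.

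Against sorted cells, miR-200a in tissue differed by a log2 value of -0.99 ± 3.88 on the U6 scale (SE, 2 tissue and 10 sorted samples, limma adjusted p = 0.821) and by -3.98 after median centring (limma adjusted p = 0.446). It was called in neither direction. On the U6 scale 138 of 222 assays were higher in tissue (62.2%) and 3 lower (1.35%), and the median over all tested assays was 3.02. After median centring, which placed that median at 0.03, 53 were higher (23.9%) and 56 lower (25.2%). The value for miR-200a averaged an undetermined well and its earliest well. Without tissue 1 it was 6.89 (limma adjusted p = 0.208) and without tissue 2 it was -8.87 (limma adjusted p = 0.0987), each with a lone tissue sample taken to vary like the other groups.

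MiR-200c, determined in both tissue samples, was higher there than in sorted samples by 5.17 on the U6 scale (exact two-sided permutation of 2 against 10, p = 0.0758, where the smallest possible is 0.0152) and by 2.18 after median centring (exact permutation p = 0.455). Over determined wells alone the difference was 1.87 on the U6 scale and -0.92 after median centring, so its direction relative to the median miRNA depended on the undetermined wells. For miR-141 the same values were -1.97 and -5.45 (2 tissue and 2 stellate wells), for miR-429 -2.21 and -5.04 (1 and 5 wells), for miR-200b 1.67 and -1.30 (1 and 2 wells) and for miR-200a 4.10 and 1.24 (1 and 7 wells). With median centring, miR-200a alone of the 5 stood higher in its tissue well than in the mean determined sorted well.

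The order of the members by determined Ct differed between preparations. In sorted samples the medians of determined wells ran from miR-200a (30.1) over miR-429 (31.4), miR-141 (32.2) and miR-200c (32.7) to miR-200b (35.4). Their ranges overlapped between neighbours, except that miR-200b lay beyond all wells of the other members. These medians come from different samples for each member, and on the U6 scale miR-200c (14.8) came before miR-141 (15.5) and a well of miR-141 (18.2) lay beyond miR-200b (18.0). In tissue 2 the order was miR-200a, miR-200c, miR-429, miR-200b and miR-141. These are orders of Ct and not of molecules, since assays differ in efficiency.

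The 3 assays whose median-centred Ct followed miR-200a most closely over its 7 determined sorted samples were miR-324-3p (Spearman's rho 0.929), miR-125b-3p (0.857) and miR-328 (0.857), out of 176 assays determined in all 10. Of these 176, 12 had a rho over 0.7, and with 7 points that share their libraries' depth this is a description only.

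Other miRNAs known from epithelia were read beside the family. All 9 of this list were on the card and 4 were tested, with 0 called between stellate and non-stellate samples and a median log2 difference of 0.25, against 0.46 over all tested assays. MiR-203, a keratinocyte miRNA, was determined in all 10 sorted samples (Ct 29.8 to 34.1), as were miR-31 (28.4 to 33.4), miR-192 (31.4 to 33.4) and miR-194 (31.3 to 34.4). In tissue these 4 were determined in both samples within 0.21 cycles of each other, unlike miR-200a. MiR-182 (31.4 and 30.4 in tissue 1 and 2) and miR-215 (35.3 and 34.2) were also determined in both. MiR-183, like miR-200a, was determined in tissue 2 alone (36.3). MiR-205, an epithelial miRNA that acts on Zeb1 and Zeb2 as the miR-200 family does, was undetermined in all 10 sorted samples and had a Ct of 31.5 and 32.4 in tissue. MiR-96 was undetermined in all 12. The summed level of the list, as a log2 value relative to U6, was -11.6 to -10.0 in stellate samples, -12.5 to -10.5 in non-stellate samples and -7.70 and -7.39 in tissue.

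MiR-182 and miR-183, neighbours in the cluster of sensory epithelia, fell partly in the samples that held miR-141 and miR-200b. MiR-182 had its earliest Ct in stellate 1 (28.1) and non-stellate 1 (29.2), was later in stellate 2 and 5 and non-stellate 4 (33.3 to 34.2), and was undetermined in the other 5 sorted samples. MiR-183 was determined in stellate 1 (30.7), stellate 5 (31.5) and non-stellate 1 (33.1) and in no other sorted sample. The 2 stellate samples with miR-141 were thus the 2 stellate samples with miR-183, and the pair with miR-200b was the pair with the earliest miR-182. No test was made of this overlap, which was seen after the values were known. MiR-215 was determined in 1 sorted sample, stellate 3, at 34.5.

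**Figure D5:**
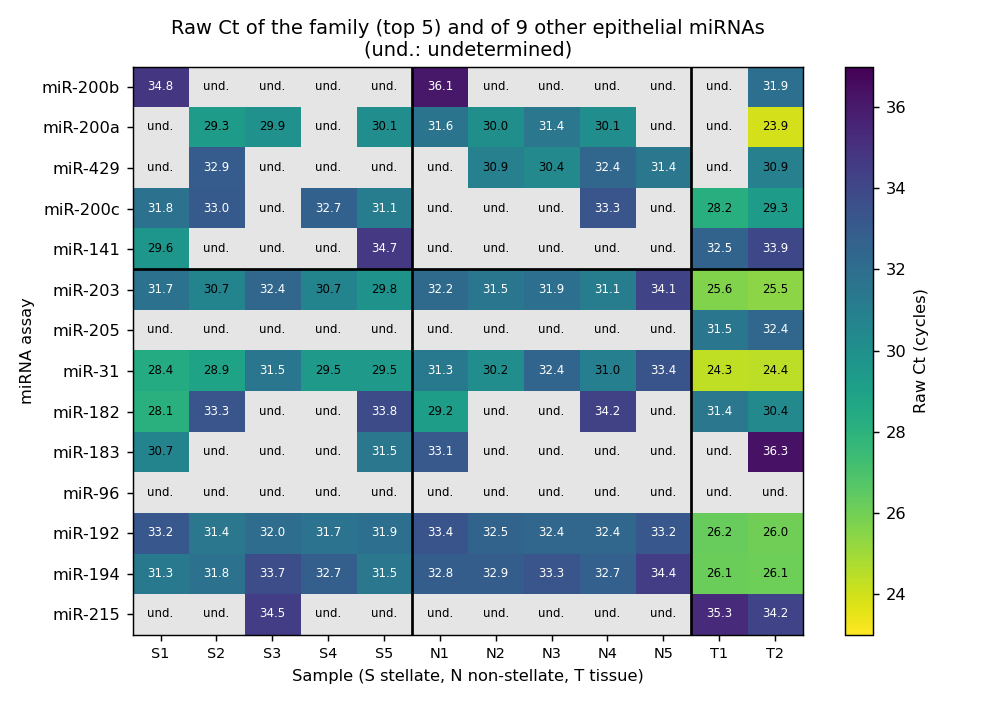
Raw Ct in cycles of the 5 family members (top rows) and of 9 other epithelial miRNAs in each stellate (S), non-stellate (N) and tissue (T) sample, with darker cells for later cycles and grey for undetermined wells. MiR-203, miR-31, miR-192 and miR-194 are filled in every sample, and the family rows are broken, as are those of miR-182, miR-183, miR-205 and miR-215.

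Markers of other cell types were read on the same card, and 0 of their tested miRNAs were called between stellate and non-stellate samples. The number tested and the median log2 difference were 4 and 1.45 for ciliated epithelium, ependyma and choroid plexus, 3 and 0.90 for neuroendocrine, 4 and 1.42 for vascular, 4 and -0.27 for blood and microglial, and 5 and 0.97 for neuronal miRNAs, and neither oligodendrocyte miRNA passed the filter. The neuronal markers miR-124, miR-128a, miR-138, miR-129-3p and miR-9 were determined in all 10 sorted samples. These include the DiO negative ones, so this detection does not tell which cell type was labelled. Of 6 blood and microglial miRNAs, miR-142-3p, miR-223, miR-150 and miR-155 were determined in all 10 sorted samples and miR-142-5p and miR-451 in none. MiR-155 ranged from Ct 11.3 to 35.5 in sorted samples, against 28.8 and 29.4 in tissue, and its earliest well came before U6 (16.5 to 20.2). These wells entered the blood and microglial median, and their cause was not tested. In such samples of many cells, fewer cells that express a member and less of it per cell cannot be told apart, and the part of other cell types in the family's signal was not tested.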

How the data were processed

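MicroRNA levels were read on TaqMan rodent card A in 12 rat samples. The authors deposited raw Ct values, in cycles on a log2 scale, with undetermined wells at 40 (highest determined Ct 38.2). Their normalized values, deposited on the same scale, were found to be each Ct less the sample's mean over 4 U6 wells (largest difference 5.3e-15). The ratios, p-values and scores of the authors' own comparisons were deposited too and were not used. The second card of the set, B, was not used here.

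Titles, sources and fluorescence gave the groups. For non-stellate samples 3 and 5 the description reads as labelled, against all their other labels, which were followed. Members, marker lists and tests were chosen with earlier results of these data known. Named miRNAs were the 5 members, the 3 assays nearest in pattern to a member determined in at least 7 of 10 sorted samples, and the lists.

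Log2 differences are minus the difference in scaled Ct. Assays with no more than 3 undetermined wells among the 10 sorted samples were tested two-sided with lmFit and eBayes of limma 3.58.1 under R 4.3.3, at a Benjamini-Hochberg adjusted threshold of 0.05, without a block, because the study's methods give none for their test. A fit of all 12 samples set tissue against the average of the sorted groups. Single values were compared by exact two-sided permutation (smallest p 0.00794 for 5 against 5). The fit was tested on simulated data. Alternatives changed the reference, centring, undetermined wells, filter, block and samples. Median centring used the 176 assays with a Ct in every sorted sample. The labels describe labelled and unlabelled cells of the same 5 biological replicates, so equal numbers were read as pairs. Deviations from group means correlated within pairs 1 to 5 at 0.331, 0.119, 0.256, 0.155 and 0.0743, against -0.0481 between other samples. Sequences are from RefSeq (GRCr8). No molecule count exists for such cards, and the number of determined assays and the U6 Ct stand for depth.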

Additional observations from a re-analysis of the deposited data

Results flagged for a closer look

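In 4 of the 10 combinations of member and sorted group, 1 sample stood far from the other 4 on the U6 scale. Chance gives about 1 in 20 such groups for values of 1 continuous kind, a rate that does not apply here, because each case came from a split between determined wells and wells entered at 40. For miR-200a, non-stellate 5 was undetermined (40 minus U6, 19.8) against 11.7 to 13.5 in the others. For miR-200c, stellate 3 was undetermined (21.0) against 14.6 to 15.0. For miR-429, stellate 2 was determined at 14.8 while the others were undetermined (21.0 to 23.5), and non-stellate 1 was undetermined (21.9) against 11.2 to 13.9. Non-stellate 5 and stellate 3 had the fewest determined assays of their groups (203 and 234). The part of depth in these wells was not tested.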

How the results depend on the processing

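Between stellate and non-stellate samples 0 assays passed under all 29 alternatives (4 to 48 at an unadjusted limma p under 0.05). For miR-429 the exact permutation p passed 0.05 with U6 (log2 -6.37) and no longer did with Y1 as reference (-6.06, p = 0.0714), with the replicate block (-6.37, p = 0.0625) or the replicate block and median centring (-6.77, p = 0.0625), without non-stellate 3 and 5 (-4.59, p = 0.214) or with undetermined wells missing (-2.07, p = 0.4), while it passed with Ct capped at 35 at a smaller size (-3.37, p = 0.0317), and leaving out single samples or pairs gave -8.22 to -4.90 (exact p = 0.0159 to 0.114). For determined assays per sample the replicate block also gave this smallest p (21.6, exact sign-flip permutation p = 0.0625, added after the data had been seen). No other comparison of members between these groups had an exact permutation p under 0.05 in the main setting. Of 26 alternatives for miR-429, 17 gave a permutation p over 0.05, most omissions of single samples or pairs among them. The 17 include both block settings and undetermined wells missing, which could not have passed. Its main exact permutation p was 0.608 after adjustment over 245 assays, of which 14 (5.71%) had an unadjusted one under 0.05. MiR-200a turned sign with undetermined wells missing (0.85) and ranged from -4.09 to 0.060 when samples or pairs were left out. MiR-200c ranged from 3.32 to 5.47 in the same way. Its unadjusted exact permutation p was under 0.05 only without stellate 3 or non-stellate 4. The difference was 1.13 with Ct capped at 35 (exact permutation p = 0.119). With undetermined wells missing it was 0.0081, from 1 non-stellate well. Against tissue, Y1 as reference lowered the called assays from 141 to 68 (97 to 119 with a sample left out). MiR-200a turned to 4.04 with undetermined wells missing (limma adjusted p = 0.00463, from 1 tissue well), 0.012 with Ct capped at 35 and 0.035 against stellate samples alone, and ranged from -8.87 to 6.89 without 1 tissue sample. MiR-200c in tissue passed an exact permutation p of 0.05 with U87 (5.92, p = 0.0303), undetermined wells missing (1.87, p = 0.0476), Ct capped at 35 (2.67, p = 0.0152), against non-stellate samples (7.23, p = 0.0476) and with the replicate block averaged (5.17, p = 0.0476), and was 4.43 to 5.91 without 1 tissue sample. The difference of 0.2 in members per sample was -0.2 at Ct under 32, and -0.25 to 0.75 with a pair left out. Causes were not tested beyond these settings. With 1 well per assay and no interval for an undetermined well, small differences were not detectable.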
